A study of Mus musculus with 8 samples.

Results

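The cells described here are CD8 T cells whose mice carried a homozygous Eomes transgene (EomesTG) and whose barcode held at least 1 unique molecular identifier (UMI, a tag that counts captured RNA molecules) of Pdcd1, the gene of the inhibitory receptor PD-1. The choice was made among EomesTG barcodes that held no fewer than 500 UMIs and 300 genes and less than 10% of mitochondrial UMIs. These criteria gave 2955 of the 18732 barcodes of the series that passed the same filters, namely 2790 of 4521 in EomesTG liver and 165 of 5726 in EomesTG spleen. Since the Pdcd1 count chose the cells, their Pdcd1 level is given as a description and was not tested. The question was how such cells of the liver differ from those of the spleen.

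The series asked how extra Eomes, which encodes a T-box factor that drives memory and cytotoxic programs in lymphocytes, acts on the gene program and on the clonal expansion of CD8 T cells. CD8 T cells were sorted from the livers and spleens of EomesTG mice on a C57BL/6 background, and likewise from wild-type (WT) C57BL/6 mice, and the labels name no treatment and no age of the mice. Each strain was represented by a pool of 3 mice, and each organ of the pool gave 1 droplet library of RNA and 1 of T cell receptors (TCR). The EomesTG liver and spleen libraries thus share a pool of mice, each difference below compares 2 libraries with no replicate check, and all intervals cover counting error only. As the labels describe neither the promoter nor the sequence of the transgene, its UMIs and those of the endogenous Eomes gene were not separated.

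PD-1 appears on T cells after engagement of their antigen receptor and, on binding its ligands, recruits phosphatases that dampen TCR and CD28 signals. Cells that see antigen for a long time keep PD-1 together with Tox, a nuclear factor that holds the exhausted state, and with other inhibitory receptors, while a stem-like fraction of them keeps the transcription factor TCF-1, encoded by Tcf7. In the liver, CXCR6 retains lymphocytes along the sinusoids, where its ligand is displayed, and resident CD8 T cells usually lack the receptors for egress and for entry into lymph nodes.

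A TCR sequence is inherited by all daughters of a T cell and marks its clone. A clone was taken as all cells with the same set of productive TCR alpha (TRA, mouse chromosome 14) and beta (TRB, chromosome 6) junction sequences in the deposited contig tables, and clones were numbered L1, L2 and so on by their size in EomesTG liver. The junctions of the clones that hold most of the liver cells are shown here, with the TRB that recurred in both organs. Capitals mark bases found neither at the end of the germline V segment nor at the start of the J segment, which in TRB include the D segment.
L1 TRA, TRAV14D-1 with TRAJ23: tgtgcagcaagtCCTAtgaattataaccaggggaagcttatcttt
L1 TRB, TRBV3 with TRBJ1-5: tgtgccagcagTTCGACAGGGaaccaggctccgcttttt
L2 TRA, TRAV19 with TRAJ58: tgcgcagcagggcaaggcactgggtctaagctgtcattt
L2 TRB, TRBV15 with TRBJ2-7: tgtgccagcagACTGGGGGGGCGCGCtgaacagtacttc
L3 and L16 TRA, TRAV9-4 with TRAJ35: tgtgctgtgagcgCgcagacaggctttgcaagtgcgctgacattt
L3 and L4 TRA, TRAV13-1 with TRAJ31: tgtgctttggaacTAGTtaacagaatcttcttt
L3, L4 and L16 TRB, TRBV12-1 with TRBJ2-5: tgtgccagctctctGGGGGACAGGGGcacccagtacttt
L3 carried both of these TRA chains, and L4 and L16 carried 1 of them each with the same TRB, so the exact match of chains split this TRB over 3 clones. The TRA of L2 held no base outside its germline V and J segments, while its TRB held 15 such bases, which include those of the D segment.

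Pdcd1 (chromosome 1, 94038305 to 94052553, minus strand, GRCm38) was detected in 61.7% of EomesTG liver barcodes (95% exact interval 60.3 to 63.1) and in 2.88% of EomesTG spleen barcodes (2.46 to 3.35). With every barcode thinned to 2000 UMIs, which removes the difference in depth, the shares were 49.96% of 3935 liver barcodes and 1.64% of 5353 spleen barcodes. Naive-type cells should lack PD-1, and among barcodes of a naive gate, which held naive-cell RNA such as Ccr7 and no UMI of Ccl5, a Pdcd1 UMI was found in 1.27% of 314 liver and in 0.619% of 2263 spleen barcodes, at median depths of 5762.5 and 4926 UMIs. The liver share was far above this level, whereas the spleen share was low and yet outside its interval of 0.339 to 1.04. With each clone counted once the liver share was 22.8%. In WT mice 8.06% of liver barcodes and 2.77% of spleen barcodes held a Pdcd1 UMI.

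**Figure D1:**
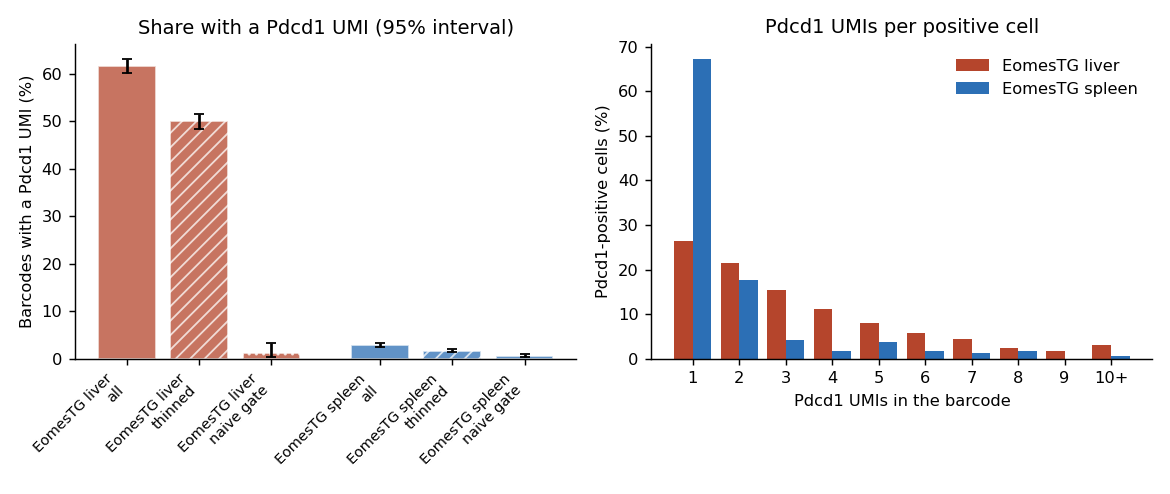
Left, share of barcodes with a Pdcd1 UMI (%, bars from 0, lines give 95% exact intervals) in EomesTG liver and then spleen, for all barcodes, after thinning to 2000 UMIs and in the naive gate; liver stood at 61.7% and spleen at 2.88%. Right, Pdcd1 UMIs per positive cell as a share of the positive cells of each organ, where 26.5% of liver cells and 67.3% of spleen cells held exactly 1.

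The cells also differed in how many Pdcd1 molecules they held. Liver cells held a median of 3 and up to 27 Pdcd1 UMIs, and spleen cells a median of 1 and up to 13. Exactly 1 UMI was found in 740 liver cells (26.5%) and in 111 spleen cells (67.3%). Levels are given below as CPM, the UMIs of a gene summed over the cells and scaled to a common total, and on this scale Pdcd1 stood at 745 CPM in liver and at 314 CPM in spleen.

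Both sets were CD8 T cells by their markers. All 6 CD8 T cell markers were detected in each, with Cd3e in 99.3% of liver and 97.6% of spleen cells and Cd8a in 94.7% and 81.8% of them, and Cd4 had no UMI in liver and 1 UMI in spleen. The 7 markers of CD4 and follicular helper T cells, Cd4 among them, together stood at 89.2 CPM in liver and 175 CPM in spleen. Of this, Izumo1r made up 80.8 and 142 CPM, and Cxcr5 was found in 1.47% of liver and 11.5% of spleen cells. The label of the cells by Pdcd1, Tox and Cxcr6 was met in liver, where Tox was detected in 82.0% and Cxcr6 in 74.98% of cells without thinning, but only in part in spleen, where they were detected in 47.9% and 15.2%. The liver cells held 12679876 UMIs in all with a median of 3793.5 per cell, and the spleen cells 957456 with a median of 4646. The naive gate held 4 liver cells (0.143%) and 14 spleen cells (8.48%). At least 2 UMIs of B cell, plasma cell, myeloid, hepatocyte, endothelial or erythroid markers were found in 6.88% of liver and 30.3% of spleen cells. Of these marker UMIs 73.5% in liver and 72.8% in spleen were Ighm, Lyz2 was at 0 in both organs, and 14 of the 38 markers in liver and 30 of 38 in spleen were at 0. The liver and spleen libraries shared 37 barcode sequences, of which 22 belonged to the liver cells and 2 to the spleen cells described here, and none of the shared barcodes had the same clone in both.

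Cells just inside the threshold, with 1 Pdcd1 UMI, held more Tox and Lag3 and less Tcf7 than cells just outside it in both organs. At 0, 1, 2 and 3 or more Pdcd1 UMIs, liver cells held 118, 484, 544 and 537 CPM of Tox, and spleen cells 43.5, 144, 215 and 303 CPM. Tcf7 stood at 231, 44.1, 27.9 and 11.7 CPM in the same liver strata and at 404, 311, 308 and 139 CPM in those of the spleen. For Tox the largest step lay between 0 and 1 UMI in both organs, and for Tcf7 it did so in liver, while in spleen Tcf7 was lowest at 3 or more UMIs. Lag3, an inhibitory receptor for MHC class II, stood at 97.2, 458, 465 and 491 CPM in liver and at 12.7, 168, 434 and 600 CPM in spleen. The strata held 1731, 740, 600 and 1450 liver cells and 5561, 111, 29 and 25 spleen cells.

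Liver and spleen cells with Pdcd1 were then compared gene by gene, as the ratio of CPM summed over the cells. In plain terms, the liver cells held more RNA of granzymes A, B and K, of CXCR6 and other residency genes, of inhibitory and NK receptors, of heat shock and of immediate early genes, and less RNA of naive, stem-like and egress genes. A gene is called higher or lower in liver below where its levels differed at least 1.5-fold and the 95% counting interval lay on that side of equality. Of 9482 genes with at least 50 UMIs over both organs, 1249 (13.2%) were higher and 732 (7.72%) lower in liver, and the median log2 ratio of all genes was 0.11. Scaling by the median of ratios moved all log2 ratios by -0.11 and gave 1008 higher and 996 lower genes. In sums over cells, fewer cells that express a gene and less RNA per cell cannot be told apart.

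Many of these differences were also present in the cells without a Pdcd1 UMI of the same 2 libraries. Among Pdcd1-zero cells 1265 (12.3%) of 10312 genes were higher and 418 (4.05%) lower in liver. Of the genes measured in both, 618 were higher in liver with and without Pdcd1, which is 54.3% of those higher in Pdcd1-positive cells and 53.3% of those higher in Pdcd1-zero cells. In the other direction 102 genes were lower in both, which is 14.03% of those lower in Pdcd1-positive and 50.2% of those lower in Pdcd1-zero cells.

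**Figure D2:**
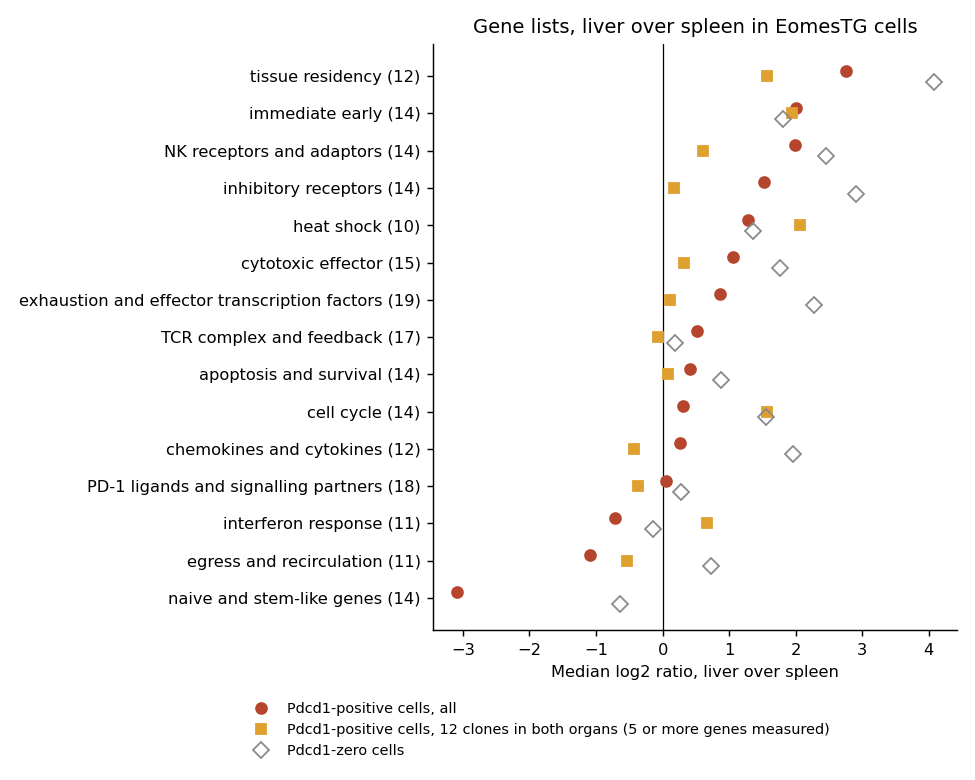
Median log2 ratio, liver over spleen (horizontal axis), of 15 gene lists in all Pdcd1-positive cells (circles), in Pdcd1-positive cells of the 12 clones found so in both organs (squares, lists with at least 5 genes measured) and in Pdcd1-zero cells (diamonds); numbers in brackets are genes measured. Residency genes had a median of 2.75 and naive and stem-like genes of -3.09 in Pdcd1-positive cells.

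Inhibitory receptors other than PD-1 were mostly higher in liver. The list held 14 measured genes, of which 10 were higher and 2 lower; the median log2 ratio was 1.53, against 2.90 in Pdcd1-zero cells and 0.11 over all genes. Cd244, a receptor of the SLAM family, stood at 109 CPM in liver and rested on 1 UMI in spleen, with a log2 ratio of 6.71 (4.23 to 12.01). Cd200r1, the receptor of CD200, reached 132 CPM in liver and 4.18 CPM in spleen (log2 4.98, 3.62 to 6.86). Entpd1, the ectonucleotidase CD39, stood at 134 and 26.1 CPM (2.36, 1.79 to 2.99), and Cd160, a receptor of HVEM, at 389 and 101 CPM (1.94, 1.65 to 2.25), each with liver first. Btla, which also binds HVEM, and Lair1, a collagen receptor, were the 2 lower genes, at 2.76 and 3.15 CPM in liver and 20.9 and 16.7 CPM in spleen. Tigit and Lag3, outside the 6 largest of the list, stood at 476 and 480 CPM in liver and at 159 and 302 CPM in spleen. Both were higher, although Lag3 (0.67) missed the threshold under median-of-ratios scaling (0.56). The Lag3 difference lay in cells with 1 Pdcd1 UMI, at 458 CPM in liver and 168 CPM in spleen. At 2 UMIs Lag3 stood at 465 and 434 CPM, and at 3 or more at 491 and 600 CPM, liver first. Tigit stood at 506 CPM in liver and 400 CPM in spleen at 3 or more.

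Ligands and signalling partners of PD-1 did not move one way. Of 18 genes 4 were higher and 3 lower, and the median log2 ratio of 0.05 turned to -0.054 under median-of-ratios scaling. The ligand genes Cd274 (PD-L1) and Pdcd1lg2 (PD-L2) stood at 17.0 and 15.5 CPM in liver and at 19.8 and 23.0 CPM in spleen, and neither passed the threshold. The higher genes were Cd80, a ligand of CD28 and CTLA-4, Pik3r1, a regulatory subunit of PI3 kinase, Cblb, a ubiquitin ligase that curbs TCR signals, and Ptpn11, the phosphatase SHP-2 that PD-1 recruits, with log2 ratios of 2.04, 1.43, 1.17 and 0.60, where Cd80 rested on 3 UMIs in spleen and Ptpn11 missed the threshold under the other scaling (0.49). Icos, a costimulatory receptor, Prkcq, the kinase PKC-theta, and Cd247, the CD3 zeta chain, were lower, with -1.41, -1.01 and -0.66. Lck, the kinase that phosphorylates the CD3 chains, stood at 839 CPM in liver and 838 CPM in spleen.

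Among 19 transcription factors of exhausted and effector T cells 10 were higher and 2 lower in liver, and their median was 0.86. Tox (chromosome 4, 6686353 to 6991557, minus strand) stood at 528 CPM in liver and 187 CPM in spleen, a log2 ratio of 1.5 (1.28 to 1.72), and at 118 and 43.5 CPM in the Pdcd1-zero cells, a log2 ratio of 1.45. Eomes (chromosome 9, 118478212 to 118486132, plus strand) did not differ beyond counting error, at 211 CPM in liver and 218 CPM in spleen (-0.05, -0.25 to 0.16). Nfil3, Bhlhe40 and Prdm1, which encodes the repressor Blimp-1, had log2 ratios of 3.14, 3.02 and 2.98, and Nr4a2, an orphan nuclear receptor induced by TCR signals, one of 2.09. Its relatives Nr4a1 and Nr4a3 were the lower genes, with -0.98 and -0.86. For Nr4a1 the ratio turned to 0.14 with each clone counted once, and 1 spleen cell held 19.9% of the spleen UMIs. With each clone counted once the Tox ratio was 0.86.

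Naive and stem-like genes were lower in liver throughout, 14 of 14 measured, with a median log2 ratio of -3.09, against -0.65 in Pdcd1-zero cells. Tcf7 stood at 21.1 CPM in liver and 281 CPM in spleen (-3.73, -3.98 to -3.48), Lef1, its relative, at 14.4 and 181 CPM (-3.65, -3.95 to -3.34), and Id3, an inhibitor of E proteins, at 21.7 and 293 CPM (-3.76, -4.00 to -3.51), with liver first. Slamf6, a surface marker of stem-like exhausted cells, and Il7r, the receptor for interleukin 7, had log2 ratios of -3.15 and -3.02. With each clone counted once the ratios were smaller, at -1.80 for Tcf7 and -1.72 for the median of the list. The naive gate, which uses genes of this list such as Ccr7, held 0.143% of the liver and 8.48% of the spleen cells. In spleen 0.619% of naive-gated barcodes held a Pdcd1 UMI. How far further naive cells add to the spleen values was not tested. At 3 or more Pdcd1 UMIs Tcf7 stood at 11.7 CPM in liver and 139 CPM in spleen. Bcl6 held 37 UMIs over both organs and was not measured.

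Genes of egress and recirculation were lower in 8 and higher in none of 11, with a median of -1.09. S1pr1, the receptor that guides T cells into blood and lymph, stood at 13.96 CPM in liver and 113 CPM in spleen (-3.01, -3.37 to -2.66). The integrin chains Itgb7, part of a gut-homing receptor, and Itgb1, the broadly expressed beta1 chain, stood at 54.1 and 156 CPM in liver and at 259 and 440 CPM in spleen, and Klf3, a repressor of the KLF family, had a log2 ratio of -2.18. Klf2, which drives S1pr1, stood at 712 CPM in liver and 617 CPM in spleen and did not pass the threshold. In Pdcd1-zero cells the egress list went the other way, with 6 of 11 genes higher, 1 lower and a median of 0.73.

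Of 12 genes of tissue residency 8 were higher and 1 lower. Their median was 2.75, with 3 genes without a spleen UMI entered at their lower bound, against 4.07 in Pdcd1-zero cells. Cxcr6 (chromosome 9, 123806475 to 123811760, plus strand) stood at 487 CPM in liver and 49.1 CPM in spleen, a log2 ratio of 3.31 (2.90 to 3.76). Rgs1 and Rgs2, which shorten signals of chemokine receptors, stood at 1620.3 and 96.2 CPM in liver and at 88.8 and 5.22 CPM in spleen, and Ahr, the aryl hydrocarbon receptor, at 74.8 CPM in liver and 5.22 CPM in spleen. Itga1, the CD49a chain, had 238 UMIs in liver and none in spleen, at least 5.99-fold higher. P2rx7, a receptor for extracellular ATP, was the lower gene, at 5.28 CPM in liver and 11.5 CPM in spleen. Other residency genes were at a low level or did not differ: Cd69, an early activation marker that holds cells back from egress, stood at 245 CPM in liver and 167 CPM in spleen (0.55, 0.32 to 0.79, under 1.5-fold), and Itgae, the CD103 chain, had 17 UMIs in 2790 liver cells and 2 in 165 spleen cells.

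The cytotoxic list had 9 higher and 2 lower genes of 15 and a median of 1.05, against 1.76 in Pdcd1-zero cells. Gzma (chromosome 13, 113093825 to 113100981, minus strand), which encodes the serine protease granzyme A, stood at 7666 CPM in liver and 109 CPM in spleen, a log2 ratio of 6.14 (5.86 to 6.43). In spleen its 104 UMIs lay in 16 of 165 cells, and 1 cell held 37.5% of them, while in liver 85.4% of cells held a Gzma UMI. Ifng and Fasl, the genes of interferon gamma and Fas ligand, stood at 502 and 202 CPM in liver and at 53.3 and 28.2 CPM in spleen, and Gzmb at 833 CPM in liver and 117 CPM in spleen (2.83, 2.56 to 3.11). Gzmm, another granzyme, and Cx3cr1, the fractalkine receptor of circulating effector cells, were lower, at 3.23 and 12.6 CPM in liver and 24.0 and 41.8 CPM in spleen. Gzmk, higher but outside the 6 largest, stood at 758 CPM in liver and 366 CPM in spleen.

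The list of chemokines and cytokines was split, with 5 higher and 3 lower genes of 12, and its median of 0.26 turned to -0.14 with each clone counted once. Ccl3, Ccl4 and Ccl5, chemokines that draw T cells and monocytes, stood at 1202, 2742 and 36650 CPM in liver and at 204, 839 and 13657 CPM in spleen. Csf1, a growth factor of macrophages, stood at 50.5 CPM in liver and rested on 2 UMIs in spleen (4.59, 2.74 to 7.64), and Csf2, which encodes GM-CSF, had 132 UMIs in liver and none in spleen, at least 3.32-fold higher. Xcl1, which attracts cross-presenting dendritic cells, and Ltb and Lta, lymphotoxins, were the lower genes, with log2 ratios of -1.97, -1.52 and -3.51. For Xcl1, 1 spleen cell held 22.5% of the 521 spleen UMIs, and the ratio was -0.17 with each clone counted once.

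Nearly all NK receptors and adaptors, 13 of 14, were higher in liver and none was lower. Their median was 1.99, with 2 genes without a spleen UMI entered at their lower bound, against 2.46 in Pdcd1-zero cells. Fcer1g, an adaptor of activating receptors, stood at 75.9 CPM in liver and rested on 1 UMI in spleen (6.18, 3.70 to 11.49), and Tyrobp, the adaptor DAP12, had 623 UMIs in liver and none in spleen, at least 15.7-fold higher. These adaptors were found in 5.73% and 7.49% of liver cells. Cd7, an immunoglobulin-type receptor of T and NK cells, stood at 2608 CPM in liver and 329 CPM in spleen (2.99, 2.83 to 3.15). The receptor genes Klre1, Klrk1 (NKG2D) and Klra9 had log2 ratios of 2.92, 2.40 and 2.49, where reads of Klra9 may be split with near-identical Klra genes. The 5 NK cell markers together stood at 147 CPM in liver and 10.4 CPM in spleen, with Klra4 at 0 in both and Ncr1 at 11 UMIs in liver and 0 in spleen. Markers of gamma-delta and innate-like T cells summed to 136 CPM in liver, of which 125 CPM was Tcrg-C2, and to 25.1 CPM in spleen. The part of such cells in the NK gene values was not tested.

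In the list of the TCR complex and its feedback 8 genes of 17 were higher and 3 lower, with a median of 0.51. The 6 largest were Egr2, a factor induced by TCR signals (-2.08), Sh2d2a, the adaptor TSAd (1.75), Ubash3b, a phosphatase that dampens TCR signals (1.46), Spry1, an inhibitor of Ras signals (-1.45), Sla2, an adaptor that lowers surface TCR (1.37), and Dusp2, a phosphatase of MAP kinases (1.25). Cd3e and Cd8a stood at 2731 and 1130 CPM in liver and at 1434 and 577 CPM in spleen, while Cd3d, another chain of the same complex, stood at 1145 CPM in liver and 1143 CPM in spleen. Cd8b1, the other CD8 chain, stood at 718 CPM in liver and 895 CPM in spleen. Cell cycle genes were near their spleen level, with 1 of 14 higher (Cdk1, a mitotic kinase, 0.59, and 0.48 under median-of-ratios scaling, below the threshold), none lower and a median of 0.31 that turned to -0.10 with each clone counted once.

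Immediate early and heat shock genes were higher in liver, 11 of 14 and 7 of 10, with none lower and medians of 2.01 and 1.29. Atf3, Dusp1, Klf6 and Jun, which respond to stress and to growth signals, had log2 ratios of 4.01, 3.49, 3.47 and 2.89, where Atf3 rested on 1 UMI in spleen. Hspa1a, an inducible Hsp70 chaperone, stood at 2003 CPM in liver and 88.8 CPM in spleen (4.5, 4.19 to 4.82), and its co-chaperone Dnajb1 at 1658 and 114 CPM (3.86, 3.59 to 4.15), liver first. Reads of Hspa1a and of its near-identical copy Hspa1b (2.98) may be split between them. Pdcd1-zero cells showed medians of 1.81 and 1.35 for these 2 lists, so both lists were higher in liver cells with and without Pdcd1. The median share of mitochondrial UMIs was 1.42% in liver and 2.63% in spleen cells with Pdcd1. The part of RNA quality in these values was not tested.

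Of 14 genes of apoptosis and survival 6 were higher and 1 lower, with a median of 0.41. Bcl2l11, the pro-apoptotic BIM, and Bcl2, the survival factor that BIM binds, stood at 112 and 512 CPM in liver and at 16.7 and 157 CPM in spleen. Tnfrsf9, the costimulatory receptor 4-1BB, had a log2 ratio of 1.39, and the death receptor gene Fas was the lower one, with -0.82. The interferon response leaned the other way, with 5 of 11 genes lower and 2 higher and a median of -0.72. Ifit3, Gbp2, Bst2 and Ifi27l2a, all induced by interferons, had log2 ratios of -1.09, -0.89, -0.87 and -0.86, and Isg20 and Isg15, induced by them as well, 1.35 and 0.74.

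Across all genes, the 12 with the highest ratio by the nearest interval bound held several already named (Gzma, Cd244, Hspa1a, Rgs1, Cd200r1 and Dnajb1). Cd200r2, a relative of Cd200r1 beside it on chromosome 16 (44867097 to 44915840, plus strand), had 2957 UMIs in liver, in 46.1% of cells, and none in spleen, at least 74.4-fold higher. Its level differed between clones, from 7.28 to 407 CPM in 17 large liver clones, and in the liver cells of clones found with Pdcd1 in both organs it had 13 UMIs in 3.53% of 283 cells. Chn2, a GTPase-activating protein for Rac, stood at 214 CPM in liver and 6.27 CPM in spleen (5.09, 3.97 to 6.54). Ccrl2, an atypical receptor that binds chemerin, stood at 88.2 CPM in liver on 1 UMI in spleen, Rhob, a small GTPase, had a log2 ratio of 4.65 (3.81 to 5.66), and Hspb1, a small heat shock protein, one of 5.34 on 2 spleen UMIs. Tmcc3 had 1055 UMIs in liver and none in spleen, at least 26.6-fold higher. At the other end stood, beside Dapl1, Id3, Tcf7 and Lef1, the genes Tmem108, Sox4, Aff3, Kbtbd11, Nsg2, Cmah and Ly6c2, with log2 ratios from -4.76 (Tmem108) to -3.48 (Ly6c2). Ly6c2, one of the genes of the memory cell antigen Ly6C, stood at 48.3 CPM in liver and 538 CPM in spleen, and Sox4, a transcription factor of lymphocyte precursors, at 1.97 and 44.9 CPM, liver first.

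Some genes differed between the organs in another way in Pdcd1-positive than in Pdcd1-zero cells. Of 8564 genes, the log2 ratio was higher in Pdcd1-positive cells by at least 1.5-fold, with a counting interval on that side, for 318 (3.71%) and lower for 857 (10%). The 5 that stood out upward were Cd55, the complement regulator DAF, Klrd1 (CD94), Hspa1a, Plekha1 and Abi3, with differences of 1.89, 1.25, 1.47, 2.23 and 1.57. Klrd1 stood at 580 CPM in liver and 220 CPM in spleen with Pdcd1, and at 233 and 210.5 CPM in the liver and spleen cells without it. The 5 that stood out downward were Penk, the precursor of enkephalins, Nr4a1, Cx3cr1, Xcl1 and Sox4. For 4 of these the direction was opposite: Penk, Nr4a1, Cx3cr1 and Xcl1 had log2 ratios of -2.00, -0.98, -1.73 and -1.97 in Pdcd1-positive cells, against 3.75, 3.58, 3.03 and 1.959 in Pdcd1-zero cells. With each clone counted once the ratios in Pdcd1-positive cells were -1.50 for Penk, 0.14 for Nr4a1, -2.02 for Cx3cr1 and -0.17 for Xcl1. Penk rested on 31 liver and 8 spleen UMIs in the Pdcd1-zero cells, too few for a call there, and 1 Pdcd1-positive spleen cell held 50.9% of 57 UMIs.

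Shares of cells at equal depth gave the same order of organs for Tox and Cxcr6. After thinning each cell to 2000 UMIs, which left out 294 liver and 12 spleen cells, a Tox UMI was found in 64.5% of liver cells (62.5 to 66.3) and 25.5% of spleen cells (18.8 to 33.2), and a Cxcr6 UMI in 57.0% (55.0 to 58.9) and 8.50% (4.602 to 14.1), liver first. In Pdcd1-zero cells of the naive gate Tox was found in 6.51% of liver and 7.12% of spleen cells and Cxcr6 in 2.28% and 0.685%. Both genes in the same cell were found in 37.7% of liver cells and in 1.31% of spleen cells, and Tcf7 without Tox in 1.84% of liver and 28.8% of spleen cells. Tcf7 with or without Tox was found in 2.44% of liver and 35.3% of spleen cells, and in 50.2% and 54.0% of the naive gate, whose cells normally express it. Eomes was found in 33.6% of liver and 26.8% of spleen cells, and in 19.5% and 21.1% of the naive gate. Cd69 was found in 31.3% of liver and 22.9% of spleen cells, and neither share stood above the naive gate (34.9% and 27.0%). Ki-67, a protein of cycling cells encoded by Mki67, was found as RNA in 7.65% of liver and 3.92% of spleen cells, with overlapping intervals.

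**Figure D3:**
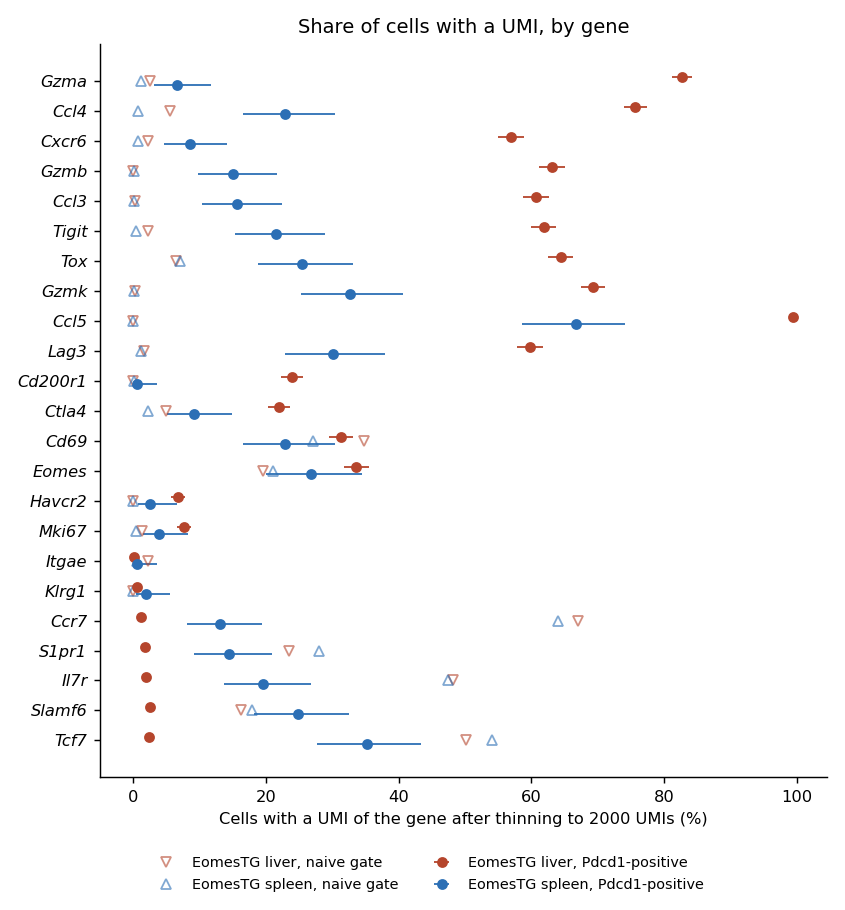
Share of Pdcd1-positive cells with a UMI of each gene shown after thinning to 2000 UMIs (%, circles with 95% exact intervals, liver in red and spleen in blue), with the share in the naive gate of each organ (triangles). Gzma stood at 82.7% in liver and 6.54% in spleen, Tcf7 at 2.44% in liver and 35.3% in spleen.

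The liver cells were oligoclonal and the spleen cells were not. TRA and TRB were both assigned to 2138 liver cells (76.6%) and 136 spleen cells (82.4%). Of these, 93.1% in liver (92.0 to 94.2) and 21.3% in spleen (14.8 to 29.2) belonged to clones with at least 2 cells in that organ, with or without Pdcd1. Clones with at least 10 held 82.9% of the liver cells and 0 of 136 spleen cells, with an exact upper limit of 2.68%. Clone size was counted over all cells with a clone, 3253 in liver and 4157 in spleen. The same clone size is thus a smaller share of the spleen cells. With clones defined by TRB alone, clones with at least 10 cells held 83.9% of liver and 9.55% of spleen cells. The largest clone held 454 liver cells (21.2%) and 6 spleen cells (4.41%), and the 3 largest together 46.2% and 10.3%. There were 260 different clones in liver and 121 in spleen. Pdcd1-zero cells lay in clones of at least 2 in 32.3% of cases in liver and 2.24% in spleen. Clone size was again counted over all cells, so Pdcd1-positive cells of a clone add to it.

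Most large liver clones were not seen in spleen. Of 19 liver clones with at least 20 cells of any kind, 3 had a spleen cell, and these were L3, L4 and L16, which share their TRB. L1 held 492 liver cells, 454 of them with Pdcd1, and L2 held 430, 399 of them with Pdcd1. For each of them the spleen gave 0 of 4157 cells with a clone, where a limit of 3 counts of 4157 allows a share of up to 0.0722%. The TRB shown above for L3, L4 and L16 was carried by 258 Pdcd1-positive liver cells and 12 Pdcd1-positive spleen cells of these clones, out of 308 liver cells and 14 spleen cells. Among Pdcd1-positive spleen cells, 34 of 136 (25%, 18.0 to 33.1) had a clone that was also found in liver, against 34 of 4021 Pdcd1-zero spleen cells (0.846%, 0.586 to 1.18).

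**Figure D4:**
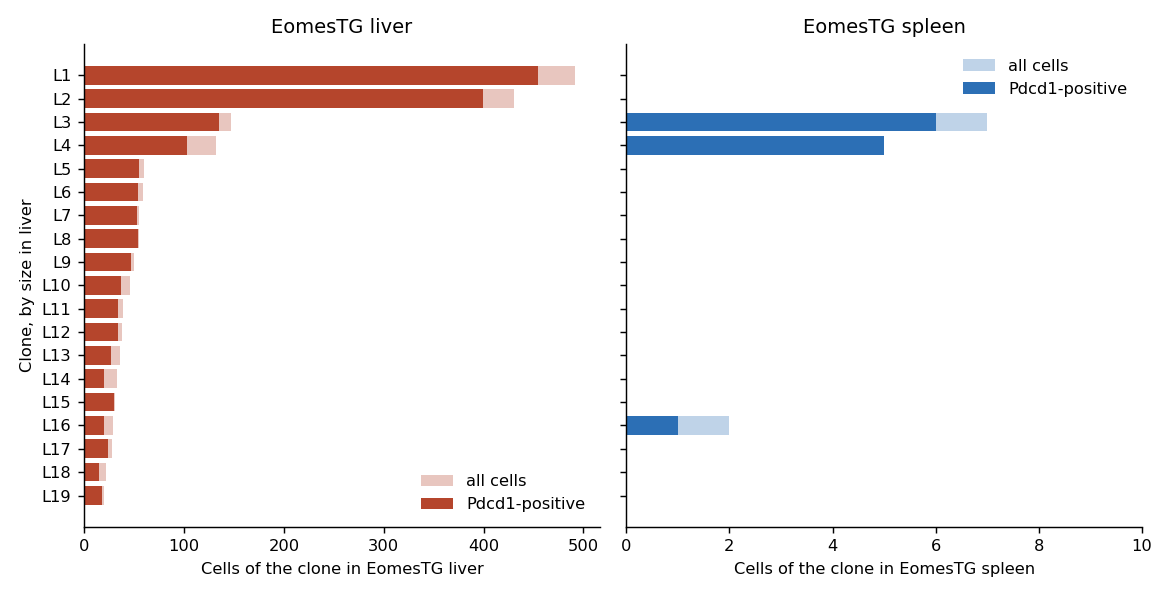
Cells (horizontal axes, counts) of the 19 clones with at least 20 liver cells in EomesTG liver (left) and EomesTG spleen (right, other scale); pale bars give all cells and dark bars those with Pdcd1. L1 and L2 held 492 and 430 liver cells and no spleen cell, and L3, L4 and L16 were the clones with spleen cells.

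Spleen cells whose clone was also in liver differed from the other spleen cells. The 34 cells with such a clone held 453 CPM of Tox, 429.5 CPM of Tigit and 47198 CPM of Ccl5, and the 102 cells with a clone found in spleen alone held 135, 109 and 7108 CPM. Tcf7 stood at 135 CPM (counting interval 78.8 to 216) in the first and at 307 CPM (267 to 351) in the second. Of the 34 cells, 12 carried the TRB of L3, L4 and L16. Pdcd1 itself stood at 676 CPM in the first and 256 CPM in the second, Gzmb at 318 and 82.9 CPM, and Gzmk at 764 and 282 CPM. By contrast Gzma stood at 135 CPM in the first and 110.5 CPM in the second, far under the 7666 CPM of the liver cells. Cxcr6 stood at 79.5 and 32.0 CPM with overlapping intervals.

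For this reason liver and spleen were also compared within clones, a comparison added after the data had been seen. In 12 clones Pdcd1-positive cells were found in both organs, 283 in liver and 25 in spleen, and 258 of the 283 and 12 of the 25 carried the TRB of L3, L4 and L16, so the mix of clones differed. Within these clones the liver cells still held more Gzma, Cxcr6, heat shock and immediate early RNA, while Tox and most inhibitory receptors were not higher. Of 3577 genes measured, 164 (4.58%) were higher and 170 (4.75%) lower in liver, and the median log2 ratio was 0.01. These cells are also part of the larger sets, so both ratios of a gene share cells and their difference was not tested. Cells were not assigned to the mice of the pool, so the mouse of origin of a clone was not known.

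Tox stood at 586 CPM in liver and 540.3 CPM in spleen within these clones, a log2 ratio of 0.12 (-0.30 to 0.56). Lag3 was lower in liver, at 406 and 746 CPM (-0.88, -1.24 to -0.49), as was Il10ra, the interleukin 10 receptor (-0.93). For Lag3 the spleen value rested on 69 UMIs in 17 cells, and 1 cell held 18.8% of them. Without thinning, a Lag3 UMI was found in 78.4% of liver and 68% of spleen cells of these clones. Eomes was lower as well, at 233 CPM in liver and 389 CPM in spleen (-0.74, -1.24 to -0.20), and so were Nr4a2 (-0.66) and Ikzf2, which encodes Helios (-1.0). Tigit did not pass the threshold (-0.19, -0.62 to 0.27). Ctla4, Cd160 and Cd244 were the 3 of 11 inhibitory receptors that were higher in liver, and the median of this list was 0.17. Ccl5 stood at 51249.6 CPM in liver and 53634 CPM in spleen.

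In contrast, Gzma within these clones stood at 6071 CPM in liver and 184 CPM in spleen (5.05, 4.37 to 5.83) and was found in 72.4% of liver and 20% of spleen cells. Cxcr6 stood at 430.1 CPM in liver and 108 CPM in spleen (1.99, 1.10 to 3.06), where the spleen value rests on 10 UMIs in 4 cells, and Rgs1 at 1104 and 313 CPM (1.82, 1.29 to 2.40), liver first. Gzmb and Ifng had log2 ratios of 1.0 and 1.33. All 10 heat shock genes and 9 of 12 immediate early genes were higher in liver, with medians of 2.07 and 1.94. The integrin chains Itgb7 and Itgb1 were lower here too, with -1.84 and -1.63. The medians of the TCR list (-0.062) and of the interferon list (0.67) had the opposite sign to that over all cells. Of 13 cell cycle genes 8 were higher and 1 lower, but Mki67, Tyms and Cdk1 rested on 0 or 1 UMI in spleen. Klrd1 turned its direction, with 70.2 CPM in liver and 184 CPM in spleen (-1.39, -2.15 to -0.54). For Xcl1 (-5.81), 1 of the 25 spleen cells held 78.5% of the spleen UMIs.

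**Figure D5:**
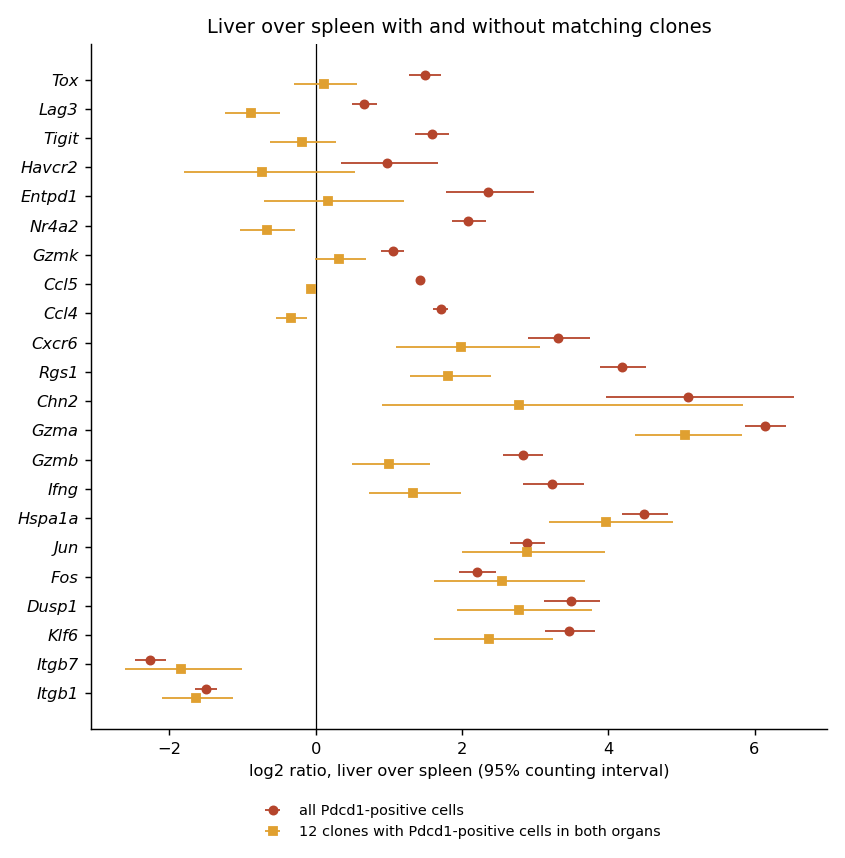
Log2 ratio of CPM, liver over spleen (horizontal axis, lines give 95% counting intervals), for 22 genes in all Pdcd1-positive cells (circles) and in those of the 12 clones with Pdcd1-positive cells in both organs (squares). Tox had 1.5 over all cells and 0.12 within clones, and Gzma 6.14 and 5.05.

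The organs were also set side by side in cells that carried the recurrent TRB, whatever their TRA. The 272 liver cells and 12 spleen cells with it held 609 CPM (565 to 655) and 541 CPM (353 to 793) of Tox, and 51259 and 51219 CPM of Ccl5, liver first. Cxcr6 stood at 454 CPM (416 to 493) in liver and 187 CPM (85.6 to 355) in spleen. Gzma stood at 6608 CPM (6463 to 6756) in liver and 333 CPM (190 to 541) in spleen, Hspa1a at 2216 CPM in liver on 2643 UMIs and at 20.8 CPM in spleen on 1 UMI. Prss2, a trypsin gene, stood at 702 CPM in liver and 291 CPM in spleen in these cells.

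The large liver clones varied in level, while for most genes named here they lay on the same side of the mean of all Pdcd1-positive spleen cells. In 17 clones with at least 20 Pdcd1-positive liver cells, Tox ran from 494 to 707 CPM with a median of 600.1, and Cxcr6 from 393 to 700.4 CPM with a median of 529. All 17 lay above the mean of the Pdcd1-positive spleen cells for both genes, as they did for Lag3, Tigit, Gzmb, Ccl5, Cd244 and Rgs1. Havcr2 lay above it in 14 clones and Ctla4 in 13. The spleen cells of the 12 clones with Pdcd1-positive cells in both organs stood at 746 CPM of Lag3 and 53634 CPM of Ccl5. These values lay above the medians of the 17 liver clones, 480 and 39360 CPM. Gzma ranged from 2892 CPM in L8 to 13156 CPM in L7, all above the 109 CPM of the spleen cells. Tcf7 and Il7r had a median of 0 over the clones, and all 17 lay below the spleen level. Eomes lay above the spleen level in 10 clones and below it in 7, between 86.6 and 316 CPM. Fcer1g ranged from 0, in 7 clones, to 1668 CPM, with a median of 4.05 CPM. Cells of a clone share an origin and are not independent. The 17 clones are not all separate either, since L3, L4 and L16 share their TRB and L8 carried the TRA and TRB of L9.

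As a description of the 3 largest clones, the genes highest in each over the other Pdcd1-positive liver cells with a clone were Morc1, Cd6, Spp1 and Fam171b in L1, Rcn3, Mtus2, Adgrg5 and Grb7 in L2, and Prss2, Fam84a, Ppic and Ier3 in L3. Cd6, a receptor for CD166 that tunes T cell activation, stood at 243 CPM in L1 and 76.3 CPM in the other liver cells, and Spp1, which encodes osteopontin, at 51.1 and 14.1 CPM. Prss2 stood at 714 CPM in L3 and at 686 CPM (615 to 762) in the 137 liver cells with the same TRB outside L3, against 4.06 CPM (2.90 to 5.53) in 2151 liver cells with another TRB. The other leading genes of L3 were likewise near its level in the cells that share its TRB, with 29.6 CPM of Fam84a, 105 CPM of Ppic and 296 CPM of Ier3, against 2.64, 6.20 and 56.7 CPM in those with another TRB. They thus marked cells of this TRB and not L3 alone.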

How the data were processed

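Expression was read from the deposited raw UMI counts per gene and barcode and receptors from the deposited contig tables, which count UMIs and reads for each contig. Libraries were made with the Chromium Single Cell 5′ v1 kit, per the labels' protocols. Cell Ranger and mm10 are named in the submitters' processing notes, and version 3.1.0 stands in the headers of the matrices, per the file headers. The deposited matrices held 4587 EomesTG liver and 5774 EomesTG spleen barcodes, and no doublet caller was run here. Barcodes with 2 productive TRB were kept and left out in an alternative. Gene positions come from GENCODE M21 on GRCm38.

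UMIs were summed over the cells, scaled to CPM, and compared as liver over spleen. The 95% interval of a ratio is exact and conditional on the sum of both counts. A minimum of 50 UMIs over both organs was set. A gene is called at 1.5-fold with the interval on that side of equality. Against 0 UMIs the fold was set at 3 counts over the group and is a lower bound. CPM intervals are exact Poisson, share intervals Clopper-Pearson. Thinning drew 2000 UMIs per cell without replacement, with seed 1. The naive gate is at least 1 UMI of each of its naive-cell genes, such as Ccr7, and 0 of Ccl5; some genes of the gate and of the rules below are not reported here. With 1 library per group no p-value was computed. The ratio step was tested on simulated counts, and the thinning step on barcodes of the EomesTG spleen library. Alternatives changed the Pdcd1 minimum, depth, gene minimum, fold, scaling and clone weighting, or left out the 3 largest clones, naive-gated barcodes, barcodes with other-cell markers or barcode sequences of both libraries.

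The members, the 15 gene lists and the alternatives were chosen with earlier results of these data known, and nothing here is independent support for them. Named are Tox, Cxcr6, Eomes and Pdcd1, the 12 genes with the highest and the 12 with the lowest ratio by the bound nearest to equality (without antigen receptor, mitochondrial, ribosomal protein and sex-linked genes, unnamed gene models and markers of other cells), up to 6 called genes of a list by size, the 5 each way with the largest difference between Pdcd1-positive and Pdcd1-zero cells, and 4 genes for each of the 3 largest clones. Tigit, Lag3, Gzmk, the PD-1 ligands, Lck, Nr4a3, Slamf6, Il7r, Bcl6, Klf2, Itga1, P2rx7, Cd69, Itgae, Ncr1, Klra4, Fas, the CD3 and CD8 chains, Izumo1r, Cxcr5, Isg15 and genes named within clones were named after their values were seen. The software was scipy 1.17.1, pandas 2.3.3, numpy 2.4.6 and matplotlib 3.10.9 under Python 3.11.15.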

Additional observations from a re-analysis of the deposited data

How the results depend on the processing

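No paired analysis was possible because each group is 1 library. The liver share with a Pdcd1 UMI was 49.96% after thinning to 2000 UMIs, 45.3% at 2 or more UMIs, 22.8% with each clone counted once and 65.1% without barcodes holding markers of other cells; the spleen share was 1.64% thinned and 0.943% at 2 or more UMIs. The 1249 higher and 732 lower genes became 783 higher (641 shared with the 1249) at 2 or more Pdcd1 UMIs, 464 and 383 after thinning (366 and 229 shared), 789 and 366 at 2-fold, 758 higher with each clone counted once (548 shared), 458 lower at a minimum of 200 UMIs, and 164 and 170 within clones of both organs (107 and 51 shared), where fewer cells leave 3577 genes measured. Liver cells in clones of at least 2 made up 95.1% at 2 or more Pdcd1 UMIs and 94.5% without barcodes with 2 TRB. A Tox UMI was found in 82.0% of liver and 47.9% of spleen cells without thinning, in 40.6% and 14.9% at 1000 UMIs, and in 38.5% of spleen cells with 2 or more Pdcd1 UMIs; for Cxcr6 the values were 74.98% and 15.2% without thinning and 37.6% in liver at 1000 UMIs. Reversed in sign were the list medians of PD-1 ligands and partners (-0.11 thinned, -0.054 by median-of-ratios scaling, -0.36 within clones), of chemokines (-0.29 thinned, -0.046 without the 3 largest clones, -0.15 without barcodes holding other-cell markers, -0.014 at 200 UMIs, -0.11 by the mean of cell CPM, -0.14 with each clone counted once, -0.43 within clones), of cell cycle genes (-0.0065 without the 3 largest clones, -0.10 with each clone counted once), and, within clones, of the TCR complex (-0.062) and the interferon response (0.67). Among named genes Nr4a1 (0.14, each clone counted once) and Klrd1 (-1.39, within clones) reversed. The comparison within clones and another with Tox-positive cells alone were added after seeing the data. The cause of these changes was not tested except where named. Of the other alternatives, 194 list medians moved by less than 1.5-fold and 368 named-gene ratios stayed within their interval, and 17 and 107 moved further without a change of sign. Under median-of-ratios scaling the calls of Lag3, Ptpn11 and Cdk1 were lost and no other list gene changed its call. The 165 spleen cells and their 957456 UMIs set the precision, since P2rx7 at 11.5 CPM in spleen rests on 11 UMIs.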

Other observations

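The junction of L2 also appeared in cells of another clone. L8, with 55 liver cells, carried the TRA and TRB of L9 and in addition the TRB of L2. The TRB of L9 resembled that of L2 in its V and J segments and in a run of G:
L2 TRB, TRBV15 with TRBJ2-7: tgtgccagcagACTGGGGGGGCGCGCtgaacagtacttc
L9 TRB, TRBV15 with TRBJ2-7: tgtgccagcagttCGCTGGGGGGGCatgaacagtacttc
Of 176 liver barcodes with 2 productive TRB, 81 held this pair, and the next most frequent pair was found in 9. In the 81 barcodes the TRB of L2 had a median of 4 contig UMIs and that of L9 a median of 42, against 25 in the 524 barcodes with the TRB of L2 alone and 39.5 in the 66 barcodes with the TRB of L9 alone. The TRA of L9 was found in 55 of the 81, that of L2 in 18, and both in none. Their median depth was 4658 UMIs, against 3648.5 and 4720.5 in the barcodes with 1 of the chains. In Pdcd1-positive cells Gzma stood at 2892 CPM in L8, 2987 CPM in L9 and 8513 CPM in L2. Havcr2 stood at 147, 146 and 39.9 CPM in the same order. The origin of the barcodes with both TRB was not tested.

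The usage of TRB segments followed the large clones. Among liver cells with Pdcd1, TRBV15 made up 28.6% and TRBV3 21.9% of 2553 TRB chains, but 4.55% and 5.30% of 264 different junctions. In spleen TRBV15 made up 3.55% and TRBV3 8.28% of 169 chains, and 4.14% and 9.66% of 145 different junctions.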
